A study of Mus musculus with 4 samples.

Results

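Genes of Wnt ligands, receptors and modulators were followed in mouse pancreatic islet cells. The cells were given MOTS-c, a peptide encoded in mitochondrial DNA, or a control peptide with the amino acids of MOTS-c rearranged (scrambled). The group holds every gene on the array whose symbol is that of a Wnt ligand (Wnt), a Frizzled receptor (Fzd1 to Fzd10), an Sfrp or Dkk antagonist, an R-spondin (Rspo) or an R-spondin receptor (Lgr4 to Lgr6), together with Lrp5, Lrp6, Wif1, Axin2, Lef1, Tcf7, Tcf7l2, Rnf43 and Znrf3. Its members are picked by gene name and not by a measured value, although the group was proposed with earlier results of these data known, and 53 of the 22911 genes with a symbol on the array belonged to it. Each gene was followed through its brightest probe.

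The cells came from littermate C57BL/6 mice labeled male, 60 weeks old, and the islets were handpicked, dispersed into single cells and exposed to either peptide at 10 μM for 24 h. RNA of 4 cultures was hybridized to 4 one-color Agilent arrays, 2 with the scrambled peptide (replicates 1 and 2) and 2 with MOTS-c (replicates 2 and 3). No untreated culture was among the samples analysed here, so every difference is between the 2 peptides. The question was which transcripts differ between islet cells that received MOTS-c and those that received the control peptide.

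Wnt proteins are secreted ligands that carry a lipid and bind a Frizzled receptor, and in the canonical branch an Lrp5 or Lrp6 co-receptor joins the complex. Binding stops the destruction complex of Axin, Apc and Gsk3, so that beta-catenin builds up and switches on genes together with Tcf and Lef factors, among them Axin2, which feeds back on the pathway. Sfrp proteins and Wif1 bind Wnt ligands, and some but not all Dkk proteins can block Lrp5 and Lrp6. R-spondins bind Lgr receptors and remove the ubiquitin ligases Rnf43 and Znrf3, which otherwise clear Frizzled from the membrane. In islets the pathway is known for roles in beta cell proliferation, maturation and insulin secretion, and TCF7L2 is a well known susceptibility gene for type 2 diabetes.

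Of the 33 members tested, 4 (12.1%) had an unadjusted p under 0.05 by limma, beside 8.61% of all genes tested. They were the receptors Fzd9 and Fzd5, the antagonist Sfrp5 and the R-spondin Rspo1, and 0 members reached an adjusted p of 0.05. The promoters of these 4, with that of the pathway target Axin2 for comparison, are shown because they are the regulatory sequences next to the start sites of the genes described most closely here. Each line gives the 250 bases before the start of the transcript, 5′ to 3′ on the strand of the gene, from RefSeq on GRCm38.p6. These coordinates belong to the sequences and not to the probes, whose annotation uses a different build. Capitals mark the GC box GGGCGG or its reverse complement CCGCCC, a motif bound by Sp family factors, and the search for the TCF/LEF core CTTTGA or TCAAAG marked nothing in any of these 5 windows.
Fzd9, chr5:135251048-135251297, minus strand: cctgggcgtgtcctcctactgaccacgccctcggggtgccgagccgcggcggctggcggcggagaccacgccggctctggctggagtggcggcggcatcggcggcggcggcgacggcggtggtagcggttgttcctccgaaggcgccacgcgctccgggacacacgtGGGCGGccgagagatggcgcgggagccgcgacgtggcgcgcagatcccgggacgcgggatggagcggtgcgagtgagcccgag
Fzd5, chr1:64737751-64738000, minus strand: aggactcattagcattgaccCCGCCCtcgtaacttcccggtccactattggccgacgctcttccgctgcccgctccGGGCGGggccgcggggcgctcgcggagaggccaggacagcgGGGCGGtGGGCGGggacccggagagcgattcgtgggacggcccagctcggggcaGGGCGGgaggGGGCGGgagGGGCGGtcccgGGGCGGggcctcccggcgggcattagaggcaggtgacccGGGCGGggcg
Sfrp5, chr19:42202253-42202502, minus strand: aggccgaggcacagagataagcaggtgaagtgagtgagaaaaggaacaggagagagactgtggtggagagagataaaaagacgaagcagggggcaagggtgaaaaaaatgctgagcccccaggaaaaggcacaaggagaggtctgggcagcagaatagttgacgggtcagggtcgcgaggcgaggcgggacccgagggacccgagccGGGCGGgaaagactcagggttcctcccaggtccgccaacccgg
Rspo1, chr4:124986180-124986429, plus strand: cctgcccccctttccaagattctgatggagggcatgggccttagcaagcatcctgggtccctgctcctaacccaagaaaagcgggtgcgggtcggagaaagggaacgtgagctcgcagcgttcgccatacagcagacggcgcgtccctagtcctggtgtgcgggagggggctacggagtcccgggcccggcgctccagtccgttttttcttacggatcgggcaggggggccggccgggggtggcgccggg
Axin2, chr11:108920099-108920348, plus strand: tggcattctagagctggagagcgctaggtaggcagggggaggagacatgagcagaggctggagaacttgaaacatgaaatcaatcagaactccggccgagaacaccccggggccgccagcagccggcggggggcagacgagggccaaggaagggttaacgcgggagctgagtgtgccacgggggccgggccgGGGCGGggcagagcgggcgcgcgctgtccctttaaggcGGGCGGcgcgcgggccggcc

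The GC box occurred 9 times in the Fzd5 window, 2 times in that of Axin2, 1 time each in those of Fzd9 and Sfrp5 and 0 times in that of Rspo1. Promoters were found for 35 of the 53 members, 44 windows in all, and 30 of these windows (68.2%) held at least 1 GC box, against 32.7% of all 32851 promoters of the same length. The TCF/LEF core was present in 5 of the 44 windows (11.4%), those of Wnt5b, Wnt11, Fzd1, Dkk1 and Lef1, against 13.8% of all promoters. Both motifs were searched on both strands and do not overlap each other. A match of letters does not show that a factor is bound there.

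The insulin genes Ins1 and Ins2, Iapp, Gcg and Sst were well above background on all 4 arrays, and the beta cell maturity gene Ucn3 was not well above background on any. The long noncoding RNA Xist, which is transcribed from the inactive X chromosome, was well above background on all 4 arrays and the 7 probes for Ddx3y, Eif2s3y, Kdm5d and Uty, genes of the Y chromosome, on none, which goes against the label male. The 2 arrays of a peptide differed by a median absolute log2 value of 0.14 (scrambled) and 0.16 (MOTS-c) over the 15469 genes tested, and by 0.26 and 0.27 over the 33 members tested. All 4 arrays lay on 1 slide. The samples are bulk cultures, so that fewer cells of a type and less RNA per cell cannot be told apart in any value below.

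Detection varied among the members. Of the 53 members, 30 were well above background on all 4 arrays, 3 on 2 or 3 arrays, 3 on 1 array and 17 on none. 33 members were well above background on at least 2 arrays and could be tested (62.3%), compared with 67.5% of all genes with a symbol. By role, 10 of 12 receptors were detected on all 4 arrays, 10 of 19 ligands, 5 of 9 genes of the R-spondin axis, 3 of 4 nuclear effectors and feedback targets, and 2 of 9 secreted antagonists. These counts depend on how well each probe hybridizes and say nothing about the level of one gene against another.

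**Figure D1:**
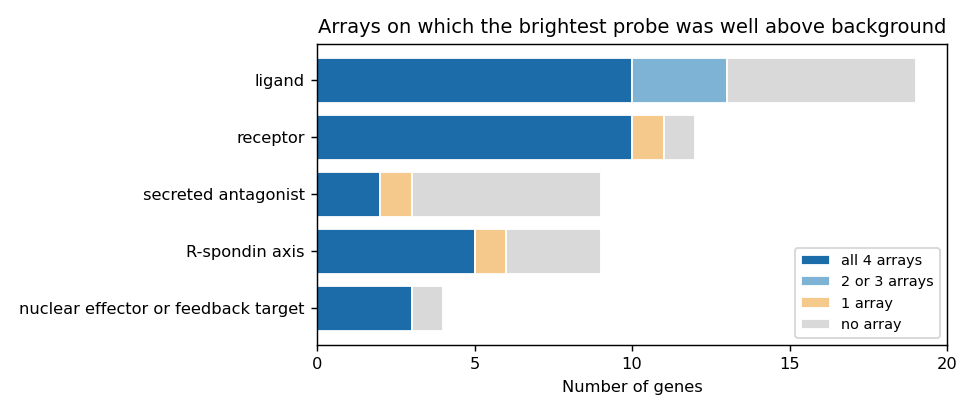
Number of genes in each of the 5 roles (bars, horizontal axis) by the number of arrays on which the gene's brightest probe was well above background. Receptors were detected most often, 10 of 12 on all 4 arrays, and secreted antagonists least often, with 6 of 9 on no array.

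The ligands on all 4 arrays were Wnt1, Wnt3, Wnt4, Wnt5a, Wnt5b, Wnt6, Wnt7b, Wnt9a, Wnt9b and Wnt11. Wnt16 was detected on 3 arrays and Wnt10a and Wnt10b on 1 array of each group, whereas Wnt2, Wnt2b, Wnt3a, Wnt7a, Wnt8a and Wnt8b were not well above background on any. Among receptors, Fzd1, Fzd3 to Fzd9, Lrp5 and Lrp6 were detected on all 4 arrays, Fzd2 on MOTS-c replicate 3 alone and Fzd10 on none. Of the antagonists, Sfrp5 and Wif1 were detected on all 4 arrays, Dkk3 on scrambled replicate 2 alone, and Sfrp1, Sfrp2, Sfrp4, Dkk1, Dkk2 and Dkk4 on none. In the R-spondin axis, Rspo1, Rspo3, Rspo4, Lgr4 and Znrf3 were detected on all 4 arrays, Rspo2 on MOTS-c replicate 2 alone, and Lgr5, Lgr6 and Rnf43 on none. Of the nuclear genes, Axin2, Tcf7 and Tcf7l2 were detected on all 4 arrays and Lef1 on none. Rnf43, Lgr5 and Lef1, all known targets of beta-catenin in other tissues, thus gave no measurable level with either peptide.

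With MOTS-c, most of the tested members differed little from the scrambled peptide. Across the 33, the median log2 fold change of MOTS-c against scrambled was 0.034, beside -0.0018 over all 15469 genes tested, and the values ran from -1.47 (Sfrp5) to 0.86 (Fzd9). 0 members reached an adjusted p of 0.05 by limma with Benjamini-Hochberg adjustment over 35087 probes, where 0% of all genes did, and the smallest adjusted p of a member was 0.486. 4 members (12.1%) had an unadjusted p under 0.05 by limma, 2 higher and 2 lower, beside 8.61% of all genes. With a change of at least 1.5-fold as well, 1 member was higher (3.03%, Fzd9), beside 0.996% of all genes, and 1 was lower (3.03%, Sfrp5), beside 3.01% of all genes. The values of the groups did not overlap for 12 members (36.4%), 7 higher and 5 lower, beside 42.5% of all genes. These shares differ from the background by 1 or 2 genes at most for the counts that use a p, and the share without overlap lay below it. With 2 arrays against 2, an exact permutation test of a single gene cannot give a two-sided p below 0.333.

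**Figure D2:**
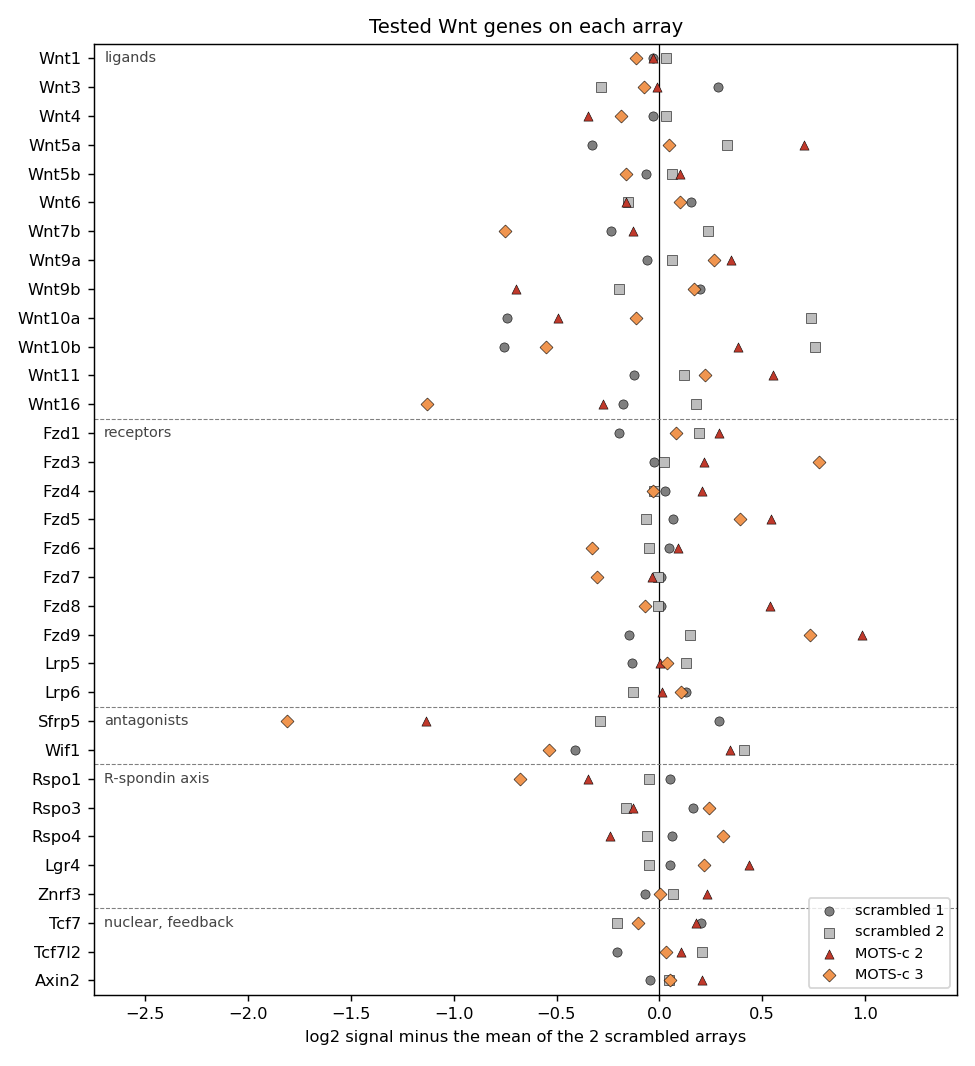
Log2 signal of each of the 33 tested members on each array, minus the mean of the 2 scrambled arrays for that gene (horizontal axis), ordered by role. Both MOTS-c arrays (triangles and diamonds) lie clear of both scrambled arrays (circles and squares) to the right for Fzd9 and to the left for Sfrp5, while most other genes lie close to 0 or spread within a group as widely as between groups.

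Receptors showed the largest positive difference. Fzd9, a Frizzled receptor, had log2 normalized signals of 7.48 and 7.78 with scrambled and 8.61 and 8.36 with MOTS-c. Both MOTS-c values were higher than both scrambled values, by more than the arrays of either group differed from each other. The log2 fold change was 0.86 ± 0.17 (SE, n = 2 per group), or 1.81-fold, with an unadjusted p of 0.0052 and an adjusted p of 0.486 by limma. Leaving out each array in turn gave values between 0.71 and 1.01. Each of these fits has a group of 1 array, which is assumed to vary like the arrays of the other group, so their p-values add little.

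Fzd5, another Frizzled receptor, measured 5.71 and 5.58 with scrambled and 6.19 and 6.04 with MOTS-c on the log2 scale, again without overlap. Its log2 fold change was 0.47 ± 0.13 (SE, n = 2 per group), with an adjusted p of 0.543 by limma. A dimmer probe of Fzd5 gave 0.23 ± 0.22, with an unadjusted p of 0.36, and with the normexp correction the brightest probe gave 0.26. Fzd3, which is best known in axon guidance, measured 8.67 and 8.72 with scrambled and 8.91 and 9.47 with MOTS-c. The MOTS-c values were higher on both arrays but lay far apart, and the log2 fold change was 0.50 ± 0.22 with an adjusted p of 0.685 by limma. Without MOTS-c replicate 3 the value for Fzd3 was 0.22, and without MOTS-c replicate 2 it was 0.77.

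The other receptors were close to 0. Fzd7 was lower on both MOTS-c arrays by a small margin (log2 fold change -0.17 ± 0.15, adjusted p = 0.829 by limma), and for Fzd1, Fzd4, Fzd6, Fzd8, Lrp5 and Lrp6 the groups overlapped, with log2 fold changes between -0.12 and 0.24. The co-receptors Lrp5 and Lrp6 had values of 0.02 ± 0.15 and 0.06 ± 0.15. In all, 8 of the 10 tested receptors had a positive and 2 a negative log2 fold change, with a median of 0.14, where all genes divided into 7679 positive and 7790 negative. An unadjusted p under 0.05 was found for 2 of the 10, beside 8.61% of all genes.

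Among secreted antagonists, Sfrp5 was lower with MOTS-c, while Wif1 showed no difference that its spread could separate from 0. Sfrp5, a soluble protein with a Frizzled-like domain that binds Wnt ligands, had log2 signals of 7.41 and 6.83 with scrambled and 5.98 and 5.30 with MOTS-c. Every MOTS-c value lay below every scrambled value, although arrays of one group differed by 0.58 (scrambled) and 0.68 (MOTS-c) on the log2 scale. The log2 fold change was -1.47 ± 0.32 (SE, n = 2 per group), or 2.78-fold lower, with an unadjusted p of 0.0066 and an adjusted p of 0.499 by limma. It was the member with the lowest value and stayed between -1.80 and -1.14 when each array was left out in turn. With the normexp background correction the value was -0.83, with an unadjusted p that was still under 0.05.

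Wif1, which also binds Wnt ligands outside the cell, measured 6.06 and 6.88 with scrambled and 6.81 and 5.93 with MOTS-c. The groups overlapped fully, and the log2 fold change of -0.10 ± 0.41 had an adjusted p of 0.975 by limma. The other 7 antagonists were not tested, 6 of them because they were not well above background on any array.

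In the R-spondin axis, the lower value belonged to Rspo1, a ligand that amplifies Wnt signaling through Lgr receptors and is known to act on beta cells. Rspo1 had log2 signals of 11.82 and 11.71 with scrambled and 11.42 and 11.09 with MOTS-c. The groups did not overlap, and the log2 fold change was -0.51 ± 0.16 (SE, n = 2 per group), with an unadjusted p of 0.028 and an adjusted p of 0.566 by limma. Without MOTS-c replicate 3 it was -0.35 with an unadjusted p of 0.10. Lgr4, one of the receptors for R-spondins, measured 8.90 and 8.80 with scrambled and 9.29 and 9.07 with MOTS-c, higher on both MOTS-c arrays. Lgr4 had a log2 fold change of 0.33 ± 0.14 with an adjusted p of 0.684 by limma. A second probe of Lgr4, much dimmer, was well above background on both MOTS-c arrays but on only 1 of the 2 scrambled arrays. It measured 4.12 and 3.65 with scrambled and 5.07 and 4.98 with MOTS-c, and its fitted log2 fold change of 1.14 ± 0.20 (adjusted p = 0.474 by limma) rests in part on a scrambled value at background.

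Znrf3, a ubiquitin ligase that removes Frizzled receptors and is induced by Wnt signaling, had log2 signals of 8.29 and 8.42 with scrambled and 8.59 and 8.36 with MOTS-c on its brightest probe. These values overlapped, and the log2 fold change was 0.12 ± 0.15 with an adjusted p of 0.884 by limma. Both dimmer probes gave 0.48, with unadjusted p-values of 0.062 and 0.057. Rspo3 and Rspo4 overlapped between groups with log2 fold changes of 0.06 ± 0.20 and 0.03 ± 0.22, and a dimmer probe of Rspo4 had the opposite sign (-0.26).

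Ligands had no member at an unadjusted p under 0.05 by limma, beside 8.61% of all genes. Of the 13 tested, 10 had a negative and 3 a positive log2 fold change, with a median of -0.07. All genes divided into 7790 negative and 7679 positive. Wnt9a measured 9.08 and 9.20 with scrambled and 9.48 and 9.40 with MOTS-c. Its groups did not overlap, and the log2 fold change was 0.31 ± 0.13 with an adjusted p of 0.669 by limma. Wnt11, a ligand best known for beta-catenin-independent signaling, measured 5.96 and 6.21 with scrambled and 6.64 and 6.31 with MOTS-c, higher on both MOTS-c arrays. The log2 fold change of Wnt11 was 0.39 ± 0.18 with an adjusted p of 0.694 by limma, but its other tested probe gave -0.11 ± 0.15.

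Wnt16 measured 4.42 and 4.77 with scrambled and 4.32 and 3.46 with MOTS-c, near the background of the arrays, and was not well above background on MOTS-c replicate 3. Its log2 fold change was -0.70 ± 0.33 with an adjusted p of 0.694 by limma. Without MOTS-c replicate 2 it was -1.14, without MOTS-c replicate 3 it was -0.27, and with the normexp background correction it was -0.05. Wnt4, which is known to be made by islet cells, was lower on both MOTS-c arrays, at 12.14 and 12.21 with scrambled and 11.83 and 11.99 with MOTS-c. That is a log2 fold change of -0.27 ± 0.13, with an adjusted p of 0.706 by limma. For the other 9 tested ligands the groups overlapped, with log2 fold changes between -0.44 (Wnt7b) and 0.38 (Wnt5a).

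Through their brightest probes, the 3 tested genes of the nuclear and feedback role had log2 fold changes between 0.04 and 0.13. Of the 3, 0 had an unadjusted p under 0.05 by limma, beside 8.61% of all genes. Axin2, a general feedback target of beta-catenin, had log2 signals of 7.78 and 7.87 with scrambled and 8.03 and 7.88 with MOTS-c. The groups were separated by a very small gap, and the log2 fold change was 0.13 ± 0.13 (SE, n = 2 per group), with an adjusted p of 0.850 by limma. Tcf7l2, the main Tcf factor studied in islets, measured 6.82 and 7.24 with scrambled and 7.14 and 7.06 with MOTS-c. The MOTS-c values lay between the scrambled ones, and the log2 fold change was 0.07 ± 0.18 with an adjusted p of 0.951 by limma.

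Tcf7 measured 5.75 and 5.34 with scrambled and 5.72 and 5.44 with MOTS-c on the probe that the naming table pairs with it. These values overlapped, with a log2 fold change of 0.04 ± 0.20 and an adjusted p of 0.982 by limma. A further probe carries an Ensembl transcript that the naming table does not hold, and the study's own listing of probes, made on these same arrays, pairs it with Tcf7. On that probe the log2 signals were 5.27 and 5.57 with scrambled and 6.12 and 5.92 with MOTS-c, without overlap. The log2 fold change was 0.60 ± 0.17, with an unadjusted p of 0.018 and an adjusted p of 0.541 by limma. Both Tcf7 probes gave a positive value, of different size, and the further probe was added after its value had been seen.

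**Figure D3:**
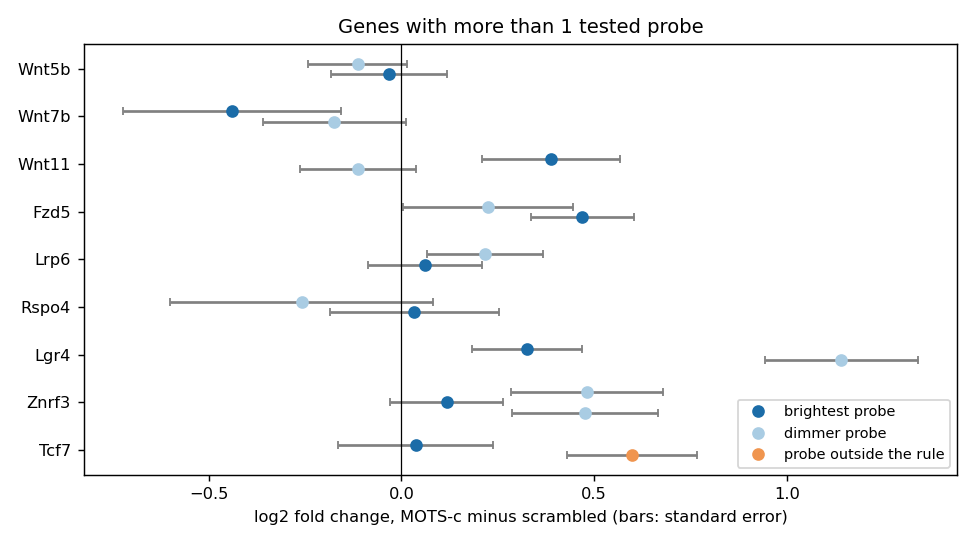
Log2 fold change of MOTS-c against scrambled (horizontal axis, bars show the standard error) for every tested probe of the members with more than 1, with the brightest probe in dark blue, dimmer probes in light blue and the added Tcf7 probe in orange. Probes of Lgr4, Znrf3 and Tcf7 lie on one side of 0 at different distances, and those of Wnt11 and Rspo4 lie on both sides.

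Further genes of the pathway that are not members were read in the same way, from 6 lists holding 61 genes on the array. 51 of them were tested, with a median log2 fold change of -0.03. 0 reached an adjusted p of 0.05 by limma, and 6 (11.8%) had an unadjusted p under 0.05, 3 higher and 3 lower, beside 8.61% of all genes. Of the 6, Cd44 and Sp5 also differed by at least 1.5-fold, but Sp5 passed the filter on dim probes only through the MOTS-c arrays, where it was higher, so its place in these counts is no support for a difference. In the destruction complex list (Apc, Axin1, Gsk3a, Gsk3b and their regulators), 0 of 13 tested genes had an unadjusted p under 0.05 and the log2 fold changes stayed between -0.32 and 0.21. Ctnnb1, which encodes beta-catenin, had a log2 fold change of 0.03 ± 0.13, with log2 signals of 12.25 and 12.36 for scrambled and 12.38 and 12.29 for MOTS-c.

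Among other known beta-catenin targets, the values pointed in both directions. Sp5, a transcription factor gene that responds directly to Wnt in many tissues, measured 3.14 and 3.73 with scrambled and 4.61 and 4.75 with MOTS-c, and was well above background on both MOTS-c arrays and on neither scrambled array. Taking the lowest measurable signal on each scrambled array in place of its own, Sp5 was at least 1.54-fold higher with MOTS-c. The adjusted p of the fit was 0.474 by limma, and nothing is read from it because of how the probe passed the filter. Cd44, a cell adhesion receptor, measured 10.27 and 10.43 with scrambled and 9.72 and 9.41 with MOTS-c, without overlap. The log2 fold change of Cd44 was -0.78 ± 0.16, with an unadjusted p of 0.0061 and an adjusted p of 0.499 by limma. Myc had log2 signals of 7.88 and 7.54 with scrambled and 8.06 and 8.10 with MOTS-c, a log2 fold change of 0.36 ± 0.16 with an adjusted p of 0.688 by limma, and Ccnd1 was not well above background on any array.

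The other 4 genes at an unadjusted p under 0.05 changed by less than 1.5-fold. Kremen1, a receptor for Dkk proteins, had a log2 fold change of 0.43, and Tle4, a co-repressor that binds Tcf factors, had 0.41. Bcl9, a co-activator of beta-catenin, had -0.40, and Celsr1, a cadherin of planar cell polarity, had -0.48.

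**Figure D4:**
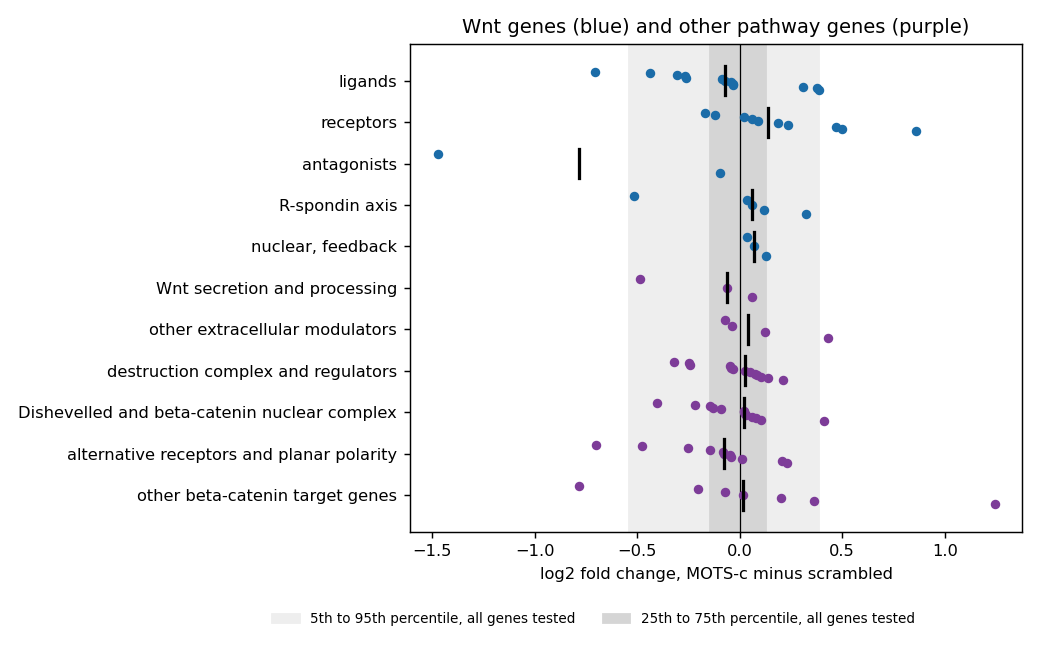
Log2 fold change of MOTS-c against scrambled (horizontal axis) for each tested gene of the 5 roles (blue) and the 6 lists of other pathway genes (purple), with black lines at the median of each list. Grey bands show the percentiles of all genes tested, and 27 of the 33 members lie between the 5th and 95th percentile.

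Some markers of other cell types moved alongside some of these values. In the list of mesenchymal and stellate cell markers, 3 of 9 genes were detected on all 4 arrays and 6 on none, including Col1a1, Col3a1, Pdgfrb, Dcn and Lum, and the summed signal of the list ranged from 5152 to 5658 on scrambled arrays and from 4853 to 4878 on MOTS-c arrays. One of the 3, Pdgfra, had log2 signals of 6.37 and 5.76 with scrambled and 5.39 and 4.65 with MOTS-c, the same order of arrays as Sfrp5. In the acinar cell list, 3 of 7 genes were detected on all 4 arrays and Pnlip and Prss2 on none, and the summed signal ranged from 4454 to 4942 on scrambled arrays and from 2403 to 3063 on MOTS-c arrays. The sums of these 2 lists and Pdgfra moved with the lower signals of Sfrp5, Rspo1 and Cd44, and their part in those results was not tested. In the alpha cell list, 4 of 5 genes were detected on all 4 arrays, with summed signals of 57758 to 61299 for scrambled and 61335 to 62263 for MOTS-c. Beta cell markers, 7 of 9 on all 4 arrays, had summed signals of 871994 to 897407 for scrambled and 863852 to 866561 for MOTS-c. These sums are mostly those of Ins1, Ins2 and Iapp. Quantile normalization sets the values of the brightest probes by their rank, so these sums cannot show a change in beta cell content. Ins2, for example, measured 18.54 on scrambled replicate 1 and on both MOTS-c arrays. Within the beta cell list, the glucose transporter gene Slc2a2 had log2 signals of 5.23 and 5.26 with scrambled and 3.81 and 4.02 with MOTS-c. All lay near background, with a spot signal of 1.3 to 2.3 times the local background. Slc2a2 was well above background on both scrambled arrays but on only 1 of the 2 MOTS-c arrays. Its fitted log2 fold change of -1.33 thus rests in part on a MOTS-c value at background. The transcription factor genes had log2 fold changes of -0.28 (Pdx1), 0.16 (Mafa) and 0.12 (Nkx6-1). The alpha cell values moved with the higher signals of Fzd9 and Fzd5, and their part in those results was not tested.

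The 4 members at an unadjusted p under 0.05 kept their direction under every processing alternative that was run. This was largely fixed in advance. Their groups did not overlap, so leaving out 1 array could hardly reverse the sign. The methods' t-test and the intensity trend use the same fold change as the reported fit. Fzd9 kept an unadjusted p under 0.05 in all of them, and Sfrp5 in all but the methods' t-test, where its p was 0.081 without adjustment. The log2 fold changes of Sfrp5 ran from -1.80 to -0.83. Fzd5 lost it when MOTS-c replicate 2, scrambled replicate 1 or scrambled replicate 2 was left out and when all its probes were averaged, and in limma with an intensity trend. Rspo1 lost it when MOTS-c replicate 3 or either scrambled array was left out, and in the methods' t-test. Fits with 1 array left out have less power by construction, and take the spread of the lone array from the other group.

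**Figure D5:**
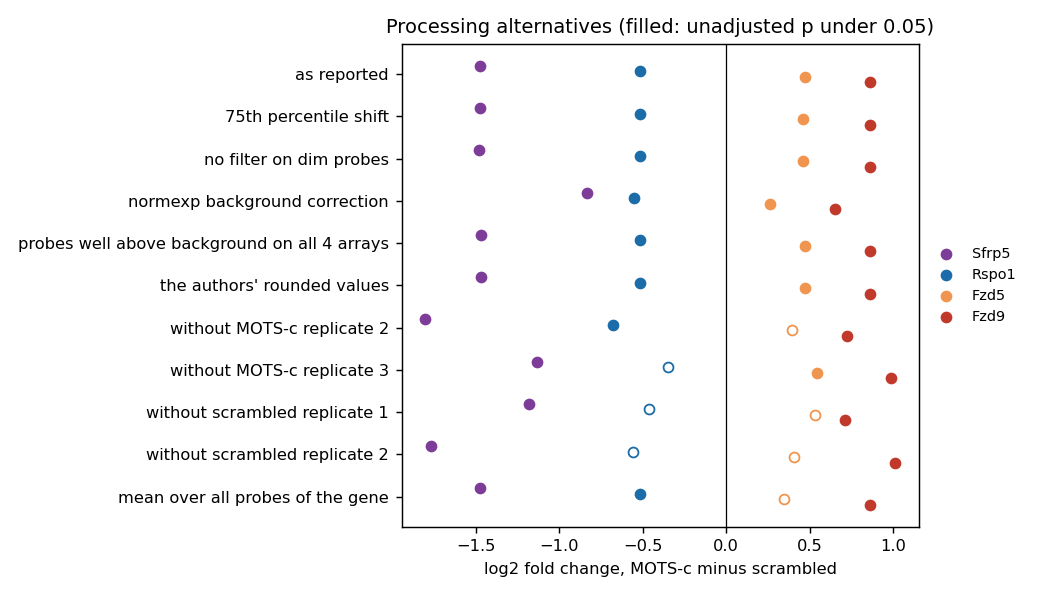
Log2 fold change of MOTS-c against scrambled (horizontal axis) for Sfrp5, Rspo1, Fzd5 and Fzd9 under the reported processing and each alternative (rows) other than the methods' t-test and the intensity trend, filled where the unadjusted p was under 0.05 and open where it was not. All points of a gene lie on one side of 0, which leaving out 1 array could hardly change because the groups did not overlap. Sfrp5 moved most, from -1.80 without MOTS-c replicate 2 to -0.83 with the normexp correction.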

How the data were processed

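RNA of 4 islet cell cultures was measured on 4 one-color Agilent arrays, grouped by the treatment given in the sample labels. The authors labeled amplified RNA with Cy3 and read the spots with Feature Extraction (version 11.0.1.1 per the file headers), and the deposited values are intensities with the background of the array already removed and no step to put arrays on a common scale. A second deposited table holds the same intensities rounded to 3 significant digits. Spots marked as controls or outliers were dropped and repeated spots averaged on the log2 scale. Quantile normalization followed for the 35087 probes that were well above background on 2 or more of the 4 arrays, and limma (version 3.58.1, R 4.3.3) tested the difference between the peptides, adjusted by Benjamini-Hochberg over these probes. Other per-spot columns the authors deposited were the flags, used as filters, and the median spot and background signals, used in the normexp alternative. Well above background is the software's own flag. Precision is limited by the 4 arrays, which leave 2 residual degrees of freedom, to which limma added 2.64.

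Symbols came from a RefSeq table (GRCm38.p6) matched on the probes' accessions, for 32994 of 56605 gene probes. The members and lists were chosen with earlier results of these data known. All members are named. Values per array are given for members without overlap at 1.5-fold, at an unadjusted p under 0.05, with the smallest p in each role (up to 3), and for the feedback and effector genes, and Wnt4 was added after its values were seen. In the other lists, genes at an unadjusted p under 0.05 and 1.5-fold were to be named, with Ctnnb1, Myc and Ccnd1, and the other 4 at an unadjusted p under 0.05 were added after seeing their values.

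The steps were tested on simulated data of the comparison of MOTS-c with scrambled. Among 35084 probes, 200 were changed by a log2 of 1, and the adjusted p found 0% of them, while the unadjusted p and 1.5-fold rule found 93% and also 519 of the probes left as they were. For a log2 of 2, the adjusted p found 51.5%. Nothing in the labels says more than that the samples are separate, while the study's methods tie them to littermates. The alternatives were a 75th percentile shift, normexp with an offset of 50 on median spot signals, the rounded table, no filter on dim probes or a strict one, each array left out, limma with an intensity trend, the methods' t-test, and averaging a gene's probes.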

Additional observations from a re-analysis of the deposited data

How the results depend on the processing

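At an adjusted p under 0.05, 0 probes were called in every limma setting run (2755 at an unadjusted p under 0.05 in the reported one), and the methods' t-test called 1 probe (2312 at an unadjusted p under 0.05), which was not of a member. The count of members at an unadjusted p under 0.05 and 1.5-fold was 2 as reported, 1 with the methods' t-test (Fzd9), and between 2 and 6 when each array was left out. The 6 without MOTS-c replicate 2 were Fzd3, Fzd9, Rspo1, Sfrp5, Wnt16 and Wnt7b, and over all genes the same array raised the counts from 154 to 481 higher and from 465 to 965 lower. For members the count was 3 with the 75th percentile shift, where Wnt16 was added. It was also 3 with no filter on dim probes (Fzd2 added) and with a gene's probes averaged (Lgr4 added). The members' median log2 fold change lay between 0.0016 and 0.099 when each array was left out, with the highest value without MOTS-c replicate 3. For the other pathway genes the count was 2 as reported, 1 with normexp, with the strict filter and with the methods' t-test (Cd44 each time), and between 2 and 4 when each array was left out, with 4 without MOTS-c replicate 2 (Ror1 and Wls besides Cd44 and Sp5). Of 140 values of 14 single members under the alternatives, 114 stayed on their side of the threshold with the same direction and 7 changed sign, none of them past the threshold as reported. Wif1 was 0.016 and Tcf7 -0.10 with normexp. When each array was left out, Wif1 ranged from -0.53 to 0.34, Tcf7 from -0.17 to 0.24 and Tcf7l2 from -0.14 to 0.27. The cause was not tested. A slide block was not run, since all arrays lay on 1 slide. No paired analysis was possible because the groups share only replicate number 2.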
